A study of Homo sapiens with 6 samples.

Results

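The genes described here are 40 genes of the lysosome and of autophagy, chosen by name from standard lists of lysosomal proteins and autophagy factors. The choice was made with earlier results of these data known, so comparisons with all genes are descriptive. The 40 genes were found by symbol in the table of spike-in normalized counts, which holds 23026 human genes. They were measured in T98G, a human glioblastoma cell line, by messenger RNA sequencing in 6 libraries. In 3 libraries (shControl 1A, 1B and 1C) the cells had been infected with a virus expressing a control short hairpin RNA, and in 3 (shDYRK1A 1A, 1B and 1C) with a virus expressing a hairpin against DYRK1A, a protein kinase that the study placed at gene promoters. All cells went through puromycin selection and a recovery without the drug, and a fixed number of Drosophila Kc167 cells was added to equal numbers of T98G cells so that fly reads could set an external scale. Each condition rests on 1 hairpin in 1 cell line. The methods of the study describe its experiments in general as independently repeated, but the sample descriptions do not tie the libraries of a group to separate cultures, so the p-values below measure the spread between these libraries, which may be technical.

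Lysosomes are acidic organelles in which hydrolases break down proteins, lipids and glycans. A proton pump, the V-ATPase, acidifies them, and membrane proteins move the products out. In autophagy a double membrane closes around cytoplasmic cargo, which receptors link to lipidated ATG8 proteins on that membrane, and the closed vesicle then fuses with the lysosome. TFEB and TFE3, transcription factors of the MiT/TFE family, are known to switch on many of these genes together by binding an E-box in their promoters.

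The libraries held 33708297 to 42154438 human gene counts. The size factors implied by the deposited table ranged from 0.821 to 1.03 in shControl and from 1.06 to 1.21 in shDYRK1A. Genes with a mean above 10 CPM (counts scaled to the library total) were tested, which left 9697 genes. On the spike-in scale the median log2 fold change (shDYRK1A over shControl) of these genes was -0.40. With TMM, a scaling that centres the fold changes of the human genes near no change, it was 0.00. Fold changes are therefore given on both scales: the spike-in scale compares RNA per added fly cell, and the TMM scale compares a gene with the other human genes. By design the T98G cells were equal in number, but bulk counts alone cannot tell fewer cells in the mix from less RNA per cell. DYRK1A itself had 2227, 2234 and 1895 normalized counts in shControl and 1482, 1056 and 1285 in shDYRK1A, with a log2 fold change of -0.73 ± 0.15 (SE, n = 3 per group) and an adjusted p of 5.33e-06 by edgeR's quasi-likelihood test. That value is on the spike-in scale, and on the TMM scale the log2 fold change of DYRK1A was -0.34. Of the cell markers examined, VIM, CD44 and FN1 had 613 to 1975 CPM in every library, NES and OLIG2 1.06 to 2.02 CPM, and the glial markers GFAP, SOX2 and S100B at most 0.0949 CPM. PTPRC, ALB and PECAM1, markers of blood, liver and endothelial cells, had at most 0.495 CPM, and the epithelial marker EPCAM had 0.684 to 1.68 CPM. The genes of the mitochondrial genome took 4.97 to 5.23% of counts in shControl and 5.46 to 5.69% in shDYRK1A. With these genes left out of the library total, the share of counts taken by the 40 genes was 0.00475 percentage points higher in shDYRK1A than in shControl, and 0.000729 percentage points higher with them kept.

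Of the 40 genes, 39 were tested. On the spike-in scale, 23 of the 39 (59.0%) were lower in shDYRK1A at an adjusted p below 0.05, against 63.4% of all genes tested, and 0 were higher, against 1.08%. All 39 fold changes were negative, against 93.6% of those of all genes tested, and they ran from -0.82 for SQSTM1 to -0.01 for BECN1. Their median was -0.31, or 0.09 above the median of all genes, and 29 of the 39 lay above that median. With the study's threshold on size added (a log2 fold change below -0.7), only SQSTM1 and ATG5 remained lower, that is 5.13% of the 39 against 14.3% of all genes, and 0 were higher, against 0.278%. At an unadjusted p below 0.05 edgeR found 24 lower and 0 higher, and DESeq2's Wald test gave 26 lower and 0 higher at an adjusted p below 0.05. By the deposited normalized counts themselves, 23 of the 39 had every shDYRK1A library below every shControl library, against 63.6% of all genes, and 0 had every shDYRK1A library above, against 1.59%.

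The count of 23 depended on single libraries. It was 10 without shControl 1A, 9 without shControl 1B, 12 without shDYRK1A 1B and 10 without shDYRK1A 1C. Without shControl 1C it was 29. The 9 genes SQSTM1, ATG5, ATG12, NPC1, MCOLN1, GLA, LAMP2, ATG7 and ATG16L1 passed in every one of these 6 fits.

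On the TMM scale the same genes parted in both directions. Lower at an adjusted p below 0.05 were 6 of the 39 (15.4%), against 28.6% of all genes, and higher were 15 (38.5%), against 27.3%. The lower genes were SQSTM1, ATG5, ATG12, NPC1, MCOLN1 and GLA. The higher genes were TFE3, the membrane proteins LAMP1 and SCARB2, the lumenal proteins CTSA, CTSL, CTSZ, GAA, HEXA, TPP1 and PSAP, the V-ATPase genes ATP6AP1 and ATP6V0D1, and the autophagosome genes ULK1, BECN1 and WIPI2. All 15 had negative fold changes on the spike-in scale, and of these only LAMP1 passed the test there. With edgeR's filterByExpr in place of the CPM filter, and with no filter, 12 were higher, and LAMP1 (adjusted p = 0.154 and 0.409), CTSL (0.0695 and 0.22) and CTSZ (0.0898 and 0.232) passed under neither. None of the 39 exceeded 0.7 in either direction on the TMM scale, where 1.93% of all genes were called lower and 1.25% higher with that threshold. CPM scales each library only to its own total. By CPM, 7 of the 39 had all shDYRK1A libraries below all shControl libraries, against 29.3% of all genes. In 20 they were all above, against 33.5%.

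**Figure D1:**
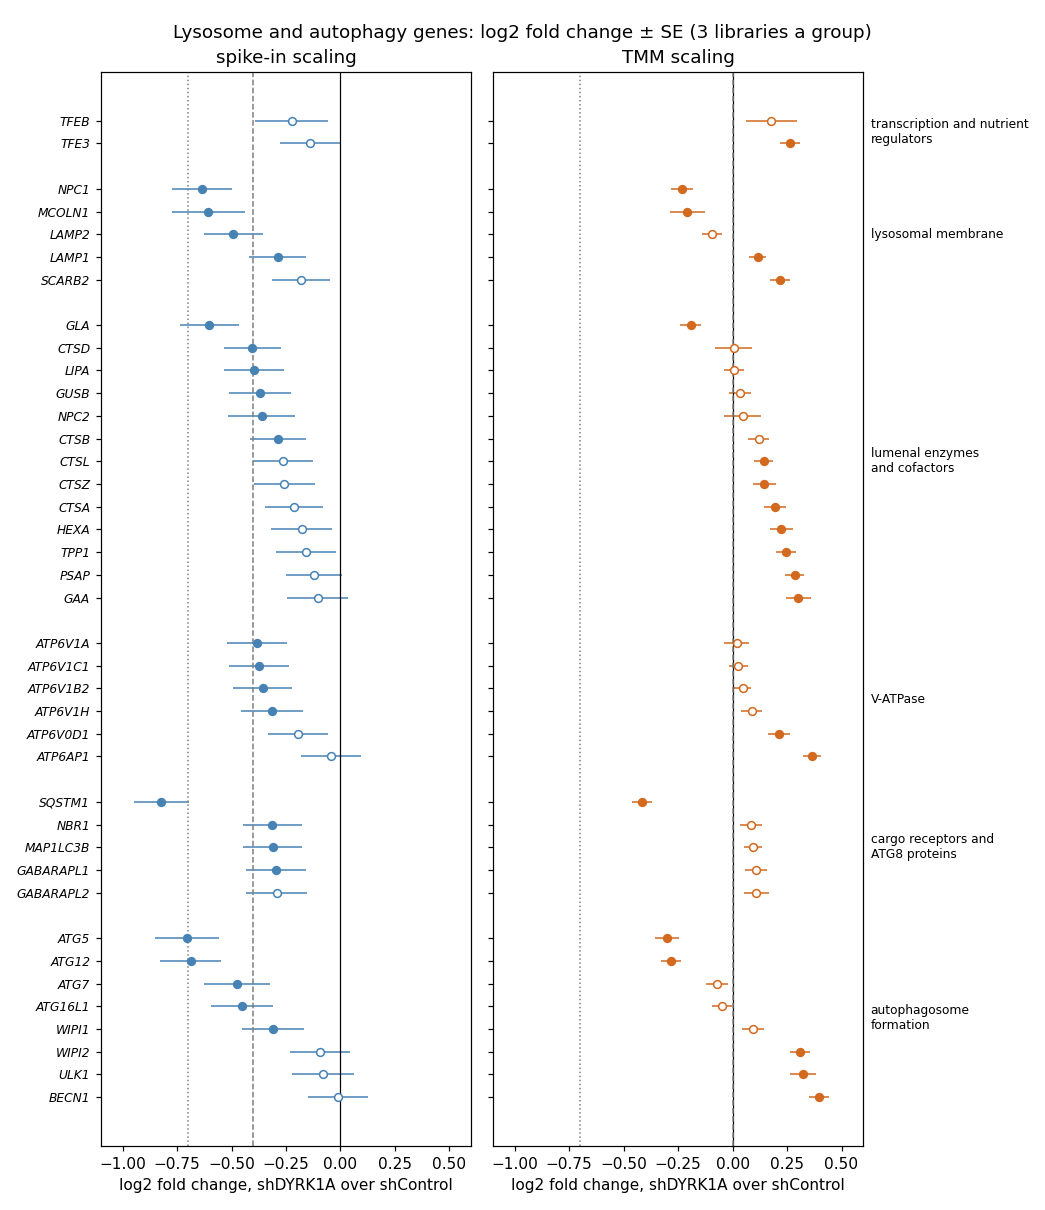
Log2 fold change (shDYRK1A over shControl) of the 39 genes tested, on the spike-in scale (left) and the TMM scale (right), ordered by role. Points are edgeR estimates with bars of 1 SE (3 libraries per group), filled where the adjusted p was below 0.05; the dashed line marks the median of all 9697 genes and the dotted line -0.7. SQSTM1 lies lowest at -0.82 and -0.42, and BECN1 highest at -0.01 and 0.40.

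Among the transcriptional regulators, TFEB (ENSG00000112561, GRCh38 chromosome 6, 41683978 to 41736259, minus strand) was a low transcript, with 82.4 normalized counts per kb of exon in shControl beside 1015 for TFE3. The shControl libraries 1A, 1B and 1C held 463, 495 and 439 normalized counts and the shDYRK1A libraries, in the same order, 425, 435 and 335. All shDYRK1A values lay below the shControl values, by a small gap. Its log2 fold change was -0.22 ± 0.17 (SE, adjusted p = 0.222 by edgeR) on the spike-in scale and 0.18 ± 0.12 (adjusted p = 0.215) on the TMM scale, and passed the test on neither; without shDYRK1A 1C the TMM value was 0.29 (adjusted p = 0.0407). TFE3 had 4486, 4661 and 3890 normalized counts in shControl and 4201, 3543 and 4077 in shDYRK1A, which overlap. Its log2 fold change was -0.14 ± 0.14 (adjusted p = 0.356) with the spike-in and 0.26 ± 0.04 (adjusted p = 0.000442) with TMM.

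The E-box that MiT/TFE factors bind has the core TCACGTG. It was searched on both strands in RefSeq promoter windows (GRCh38.p14, 250 bases before to 50 after each gene start), where 32 of the 40 genes have an entry, with 43 windows. LAMP2, CTSB, HEXA, PSAP, ATP6V1A, ATP6V1B2, ATP6V1C1 and ATP6V1H have none. The core was found in 6 of the 32 genes (18.8%), against 4.49% of all 27305 genes with a window and 3.71% of all 35116 windows. In the wider list described below it was found in 22.9% of the genes with a window. The shorter word CACGTG, which lies within the core, was found in the same 6 of the 32 genes, against 8.77% of all genes. One stretch of each is shown, 30 bases long and read 5′ to 3′ along the gene, with the E-box and, in LAMP1, a second word in capitals, because these are the promoters on which the known regulators of the set could be read.
CTSD, chr11:1763956-1763985, minus strand: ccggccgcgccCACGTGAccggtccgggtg
LAMP1, chr13:113297190-113297219, plus strand: cTCTCGCGAGAcccgcgggaTCACGTGAcg
ATP6V0D1, chr16:67481199-67481228, minus strand: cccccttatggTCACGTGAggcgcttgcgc
GAA, chr17:80101538-80101567, plus strand: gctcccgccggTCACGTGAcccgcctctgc
MCOLN1, chr19:7522598-7522627, plus strand: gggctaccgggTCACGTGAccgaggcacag
CTSA, chr20:45891298-45891327, plus strand: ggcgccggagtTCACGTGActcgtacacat

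In 5 of the 6 stretches the capitals read TCACGTGA, which holds the core on both strands, and in CTSD they read CACGTGA, the core on the opposite strand. The shown E-boxes begin 15 bases before the gene start in MCOLN1 and 60 bases before it in ATP6V0D1, with the others between. LAMP1 holds 6 separate E-boxes in its window, GAA, MCOLN1 and CTSA 2 each, and CTSD and ATP6V0D1 1 each. The other capitals in LAMP1 are TCTCGCGAGA, the palindrome that the study ties to promoters occupied by DYRK1A. It begins 48 bases before the gene start, next to an E-box that begins 29 bases before it. LAMP1 was the only gene of the 32 with this word (3.13%), against 0.505% of all genes. In the wider list described below it was found in 2.54% of the genes with a window. Only the exact word was searched, while the study graded matches to its motif by p-value. A match describes the letters and says nothing of binding.

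The 6 genes with the E-box did not move as 1 group. Their log2 fold changes on the TMM scale were 0.30 for GAA, 0.21 for ATP6V0D1, 0.19 for CTSA, 0.11 for LAMP1, 0.01 for CTSD and -0.21 for MCOLN1. By the test on that scale 4 of the 6 were higher and 1 lower, beside 9 and 5 of the 25 tested genes with a window and no match. Of all genes tested, 27.3% were higher and 28.6% lower. All 6 were negative on the spike-in scale, as were 93.6% of all genes. The median of the 6 was 0.15 on the TMM scale, beside 0.09 for the 25 without a match. In the wider list of genes described below, the medians were 0.11 for 26 tested genes with a match and 0.15 for 74 without.

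The lysosomal membrane proteins showed both directions. NPC1 (ENSG00000141458, GRCh38 chromosome 18, 23506184 to 23586898, minus strand), which moves cholesterol out of the lysosome, had 6220, 5608 and 4759 normalized counts in shControl and 4004, 3107 and 3571 in shDYRK1A. Every shDYRK1A library was below every shControl library. Its log2 fold change was -0.63 ± 0.14 (adjusted p = 2.53e-05 by edgeR) with the spike-in and -0.23 ± 0.05 (adjusted p = 0.0022) with TMM, so NPC1 fell by both. MCOLN1, the lysosomal calcium channel TRPML1, had 550, 498 and 472 normalized counts against 363, 290 and 344, again without overlap. It fell by 0.61 on the log2 scale with the spike-in (adjusted p = 0.000952). Its TMM value of -0.21 (adjusted p = 0.0449) was lost when shControl 1A, shControl 1C, shDYRK1A 1A or shDYRK1A 1B was left out, with an adjusted p of up to 0.166.

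LAMP2, a structural protein of the membrane and a receptor of chaperone-mediated autophagy, had a log2 fold change of -0.49 ± 0.13 with the spike-in (adjusted p = 0.000835) and -0.09 with TMM (adjusted p = 0.106). LAMP1, its paralog, had 11498, 11505 and 9923 normalized counts in shControl and 9728, 8340 and 8877 in shDYRK1A. Its spike-in log2 fold change was -0.29 ± 0.13 (adjusted p = 0.0457) and its TMM value 0.11 ± 0.04 (adjusted p = 0.0286), so LAMP1 passed the test in opposite directions on the 2 scales. Both calls were lost when single libraries were left out, the spike-in call in 4 of 6 fits (without shControl 1A, shControl 1B, shDYRK1A 1B or shDYRK1A 1C, adjusted p up to 0.18) and the TMM call in 4 (without shControl 1A, 1B or 1C or shDYRK1A 1C, adjusted p up to 0.11). SCARB2, a membrane glycoprotein of the lysosome, overlapped between groups in normalized counts, with a log2 fold change of -0.18 ± 0.13 (adjusted p = 0.212), and was higher by 0.22 ± 0.05 with TMM (adjusted p = 0.00177). Without shControl 1C its spike-in value was -0.26 (adjusted p = 0.0345).

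The 13 lumenal enzymes and cofactors had a median log2 fold change of -0.26 on the spike-in scale and 0.14 on the TMM scale, and 11 of the 13 lay above the median of all genes on the spike-in scale. With the spike-in, 6 fell (CTSB, CTSD, GLA, GUSB, LIPA and NPC2), that is 46.2% against 63.4% of all genes. With TMM 7 were higher (53.8% against 27.3%) and GLA alone was lower (7.69% against 28.6%). GLA, α-galactosidase A, had 9460, 8920 and 7318 normalized counts in shControl and 6075, 5354 and 5496 in shDYRK1A, with no overlap. It fell by 0.60 ± 0.13 on the log2 scale with the spike-in (adjusted p = 4.26e-05 by edgeR) and by 0.19 ± 0.05 with TMM (adjusted p = 0.00448).

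At the other end of this group stood GAA, acid α-glucosidase, which breaks down glycogen, and PSAP, the precursor of the saposins that help lipid hydrolases. GAA had 4167, 4612 and 3848 normalized counts in shControl and 4045, 3785 and 3908 in shDYRK1A. The groups overlap, and the spike-in log2 fold change was -0.11 ± 0.14 (adjusted p = 0.495), while the TMM value was 0.30 ± 0.06 (adjusted p = 0.00103). PSAP had 28728, 28946 and 24639 against 26800, 23478 and 25394 normalized counts, a log2 fold change of -0.12 ± 0.13 (adjusted p = 0.393), and 0.28 ± 0.04 with TMM (adjusted p = 0.000221). Within each library the raw count of GLA relative to PSAP was 0.329, 0.308 and 0.297 in shControl and 0.227, 0.228 and 0.216 in shDYRK1A, a ratio that no scaling between libraries can change.

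TPP1 and HEXA, a peptidase and the α subunit of β-hexosaminidase, were higher with TMM by 0.25 and 0.22 (adjusted p = 0.000628 and 0.00352), and the protective protein CTSA by 0.19 (adjusted p = 0.00713). Their spike-in values were -0.16, -0.18 and -0.21 and did not pass the test, although CTSA did without shControl 1C (-0.28, adjusted p = 0.0212). The cysteine cathepsins CTSL and CTSZ had TMM values of 0.14 (adjusted p = 0.0154) and 0.15 (adjusted p = 0.0292). The CTSL value did not pass without shControl 1B or 1C (adjusted p up to 0.063), nor that of CTSZ without any shControl library or without shDYRK1A 1A (adjusted p up to 0.089). Their spike-in values of -0.26 each passed without shControl 1C, and for CTSZ also without shDYRK1A 1A.

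The cathepsins CTSD and CTSB had the highest levels of the proteases per kb of exon, 5080 and 3984 normalized counts in shControl, beside 2117 for CTSL. CTSB fell by 0.29 with the spike-in (adjusted p = 0.0397), a call lost in 4 of 6 fits that leave out a library (without shControl 1A or 1B or shDYRK1A 1B or 1C, adjusted p up to 0.167), and its TMM value passed as higher without shDYRK1A 1A (0.15, adjusted p = 0.0336). CTSD fell by 0.41 (adjusted p = 0.00478), lost without shControl 1B or shDYRK1A 1C (adjusted p up to 0.101). Its TMM value of 0.01 (adjusted p = 0.962) became -0.12 without shDYRK1A 1B and then passed as lower (adjusted p = 0.0298). Of the exonic bases of CTSD, 41.7% are also exonic in RP11-295K3.1 on the same strand, so its counts are less certain. LIPA, lysosomal acid lipase, GUSB, β-glucuronidase, and NPC2, the soluble partner of NPC1, fell by 0.40, 0.37 and 0.36 with the spike-in and had TMM values of 0.00, 0.03 and 0.05, close to the median of all genes. Those 3 spike-in calls were each lost without shControl 1A, shControl 1B or shDYRK1A 1C (adjusted p up to 0.194), and that of LIPA also without shDYRK1A 1B.

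Of the V-ATPase genes, the 4 cytosolic V1 subunits ATP6V1A, ATP6V1B2, ATP6V1C1 and ATP6V1H, which hold or regulate the ATP-splitting head, had spike-in log2 fold changes of -0.38, -0.36, -0.38 and -0.32, all past the test. Each call was lost when shDYRK1A 1B or either of shControl 1A and 1B was left out, and all but that of ATP6V1A also without shDYRK1A 1C (adjusted p up to 0.207). ATP6V1A had 5268, 5332 and 4341 normalized counts in shControl and 4281, 3123 and 4063 in shDYRK1A, and did not pass without shControl 1A, without shControl 1B or without shDYRK1A 1B (adjusted p = 0.0871, 0.0906 and 0.128 by edgeR). On the TMM scale the 4 had values of 0.02 to 0.09, none past the test.

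ATP6V0D1, of the membrane part V0, and ATP6AP1, an accessory protein of the pump, had spike-in values that did not pass and TMM values that did. ATP6AP1 had 5523, 5597 and 4679 normalized counts in shControl and 5441, 4771 and 5123 in shDYRK1A, so that the groups overlap. Its log2 fold change was -0.04 ± 0.14 (adjusted p = 0.784) with the spike-in and 0.36 ± 0.04 (adjusted p = 2.65e-05) with TMM. For ATP6V0D1 the values were -0.19 ± 0.14 (adjusted p = 0.2) and 0.21 ± 0.05 (adjusted p = 0.00393), and without shControl 1C its spike-in value was -0.27 (adjusted p = 0.039). ATP6V0C, the proteolipid ring subunit, was the 1 gene not tested. It had 5 to 14 raw counts per library, and 72.1% of its exonic bases are also exonic in AC093525.1 or AC093525.2 on the same strand, so its level cannot be read from these counts.

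SQSTM1 (ENSG00000161011, GRCh38 chromosome 5, 179806398 to 179838078, plus strand) encodes p62, the receptor that links ubiquitinated cargo to the forming autophagosome and is itself degraded with it. Per kb of exon it had the highest level of the 40 genes, 13384 normalized counts in shControl beside 8471 for PSAP, the next, and it had the lowest fold change. It had 106377, 109662 and 91288 normalized counts in shControl and 62170, 53934 and 57699 in shDYRK1A. The highest shDYRK1A library lay well below the lowest shControl library. Its shDYRK1A level was 0.566 of the shControl level, a log2 fold change of -0.82 ± 0.12 (adjusted p = 1.17e-09 by edgeR), and on the TMM scale the log2 fold change was -0.42 ± 0.04 (adjusted p = 1.63e-05). Leaving out any 1 library gave -0.90 to -0.77 on the spike-in scale, with no loss of the call. On the opposite strand MGAT4B and MRNIP share 22.0% of its exonic bases, and opposite-strand genes share 28.5% of those of CTSA, 28.1% of WIPI1, 18.1% of ATG7 and 17.1% of BECN1. The library kit marked strand, but the strand setting of the counting is not given in the sources used here.

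The other receptor and ATG8 genes had smaller fold changes than SQSTM1. NBR1, a second receptor for ubiquitinated cargo, had 7604, 7923 and 6864 normalized counts against 6627, 5071 and 6323, a log2 fold change of -0.31 ± 0.13 (adjusted p = 0.033) and a TMM value of 0.08 (adjusted p = 0.182), which passed as higher without shDYRK1A 1B (0.13, adjusted p = 0.00846). The ATG8 genes MAP1LC3B, GABARAPL1 and GABARAPL2 had spike-in values of -0.31, -0.30 and -0.29 and TMM values of 0.09, 0.11 and 0.11. With the spike-in MAP1LC3B and GABARAPL1 passed (adjusted p = 0.0348 and 0.0497) and GABARAPL2 did not (adjusted p = 0.0533), though their fold changes were nearly equal. GABARAPL2 passed without shControl 1C (adjusted p = 0.0108), without shDYRK1A 1A (adjusted p = 0.0325) and by DESeq2's Wald test (adjusted p = 0.0162), its TMM value passed as higher without shDYRK1A 1C (adjusted p = 0.0395), and the spike-in calls of NBR1, MAP1LC3B and GABARAPL1 were each lost when 1A or 1B of shControl, or 1B or 1C of shDYRK1A, was left out (adjusted p up to 0.259). MAP1LC3B and GABARAPL1 have near-identical copies elsewhere in the genome, so their counts are less certain. Within each library the raw count of SQSTM1 was 14.5, 15.1 and 15.2 times that of MAP1LC3B in shControl and 10.1, 10.6 and 10.7 times in shDYRK1A, and 14.0, 13.8 and 13.3 times that of NBR1 against 9.38, 10.6 and 9.12 times. These ratios, like those of GLA above and of BECN1 below, were chosen after the values were seen.

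**Figure D2:**
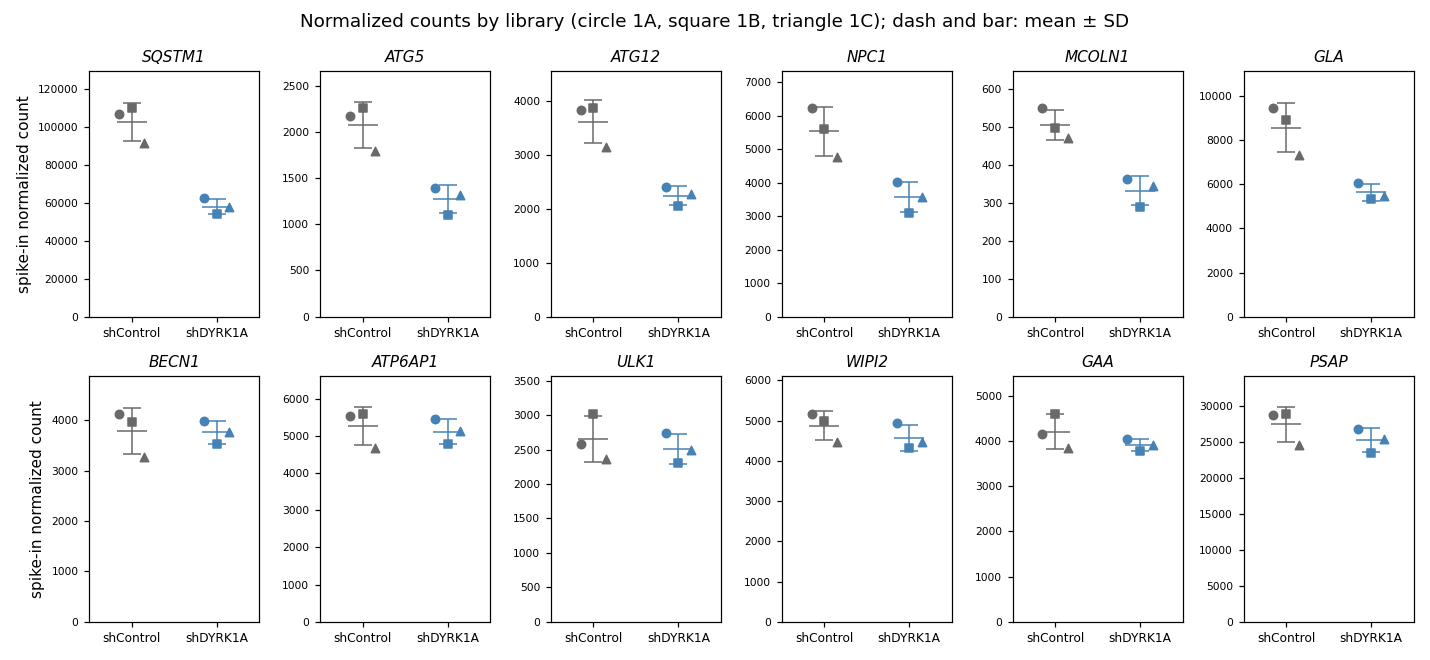
Spike-in normalized counts in each library for the 6 genes lower on the TMM scale (top) and the 6 highest on that scale (bottom). Each panel starts at 0, symbols mark libraries 1A, 1B and 1C, and the dash and bar give the mean ± SD (n = 3). The groups are apart in all panels of the top row, as for SQSTM1 with 91288 or more against 62170 or less, and overlap in all panels of the bottom row.

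Of the genes that form the autophagosome, ATG5 and ATG12 encode the conjugate that, with ATG16L1, attaches ATG8 proteins to the membrane. ATG5 (ENSG00000057663, GRCh38 chromosome 6, 106045423 to 106325791, minus strand) had 2168, 2254 and 1792 normalized counts in shControl and 1390, 1104 and 1316 in shDYRK1A, without overlap. Its log2 fold change was -0.70 ± 0.15 (adjusted p = 1.24e-05 by edgeR) with the spike-in, just past the size threshold, and -0.30 ± 0.05 (adjusted p = 0.00062) with TMM. ATG12 lay just short of that threshold, at -0.69 ± 0.14 (adjusted p = 8.91e-06), from 3826, 3857 and 3147 against 2399, 2054 and 2268 normalized counts, and at -0.28 ± 0.04 with TMM (adjusted p = 0.000283). Which genes passed the threshold therefore depended on the library: 1 gene did without shControl 1A, without shControl 1B or without shDYRK1A 1B, 4 without shDYRK1A 1A and 5 without shControl 1C, while the adjusted p of ATG5 stayed at or below 0.0017.

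ATG7, the enzyme that activates both ATG12 and the ATG8 proteins, fell by 0.47 with the spike-in (adjusted p = 0.0037), and ATG16L1 fell by 0.45 (adjusted p = 0.00349). Their TMM values of -0.07 and -0.05 did not pass the test. WIPI1, which binds the lipid of the nascent membrane, fell by 0.31 (adjusted p = 0.049), a call lost in 4 of 6 fits (without shControl 1A or 1B or shDYRK1A 1B or 1C, adjusted p up to 0.224).

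BECN1, ULK1 and WIPI2 had the highest values of this group on both scales. BECN1, a subunit of the lipid kinase complex that marks the nascent membrane, had 4131, 3955 and 3278 normalized counts in shControl and 3987, 3523 and 3758 in shDYRK1A. The groups overlap and the spike-in log2 fold change was -0.01 ± 0.14 (adjusted p = 0.942), and the TMM value of 0.40 ± 0.05 (adjusted p = 2.97e-05) was the highest of the 39. ULK1, the initiating kinase, had -0.08 ± 0.14 (adjusted p = 0.615) and 0.32 ± 0.06 (adjusted p = 0.000693). WIPI2, which recruits ATG16L1, had -0.09 ± 0.14 (adjusted p = 0.537) and 0.31 ± 0.05 (adjusted p = 0.000158). The spike-in values of BECN1 and ULK1 changed sign when single libraries were left out, as did that of ATP6AP1, and none passed the test in any of those fits. Within libraries the raw count of ATG12 relative to BECN1 was 0.926, 0.975 and 0.960 in shControl and 0.602, 0.583 and 0.603 in shDYRK1A, and that of ATG5 relative to BECN1 was 0.525, 0.570 and 0.547 against 0.349, 0.314 and 0.350. Both ratios separated the groups, but the pairs were chosen after the values were seen, so the separation is not a test.

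As a share of all human gene counts, the 40 genes together did not separate the groups. They took 0.739, 0.750 and 0.756% of counts in the shControl libraries, and 0.742, 0.754 and 0.752% after shDYRK1A. The widest 95% Wilson interval of a library was ± 0.00292 percentage points, which covers counting error only. SQSTM1 alone took 0.221, 0.229 and 0.228% in shControl and 0.170, 0.173 and 0.173% in shDYRK1A. Without SQSTM1, the other 39 genes took 0.518, 0.521 and 0.529% in shControl and 0.573, 0.581 and 0.579% in shDYRK1A, with all shDYRK1A libraries above. The lower share of SQSTM1 (-0.0542 percentage points) and the higher share of the rest (0.0549 percentage points) were nearly equal in size. The 13 lumenal genes took 0.267, 0.270 and 0.275% in shControl and 0.295, 0.313 and 0.299% in shDYRK1A. The shares of the V-ATPase, autophagosome and regulator genes were also higher in every shDYRK1A library, and those of the membrane genes overlapped. With 3 libraries per group, an exact permutation test cannot give a p below 0.1, so none was made of these shares.

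**Figure D3:**
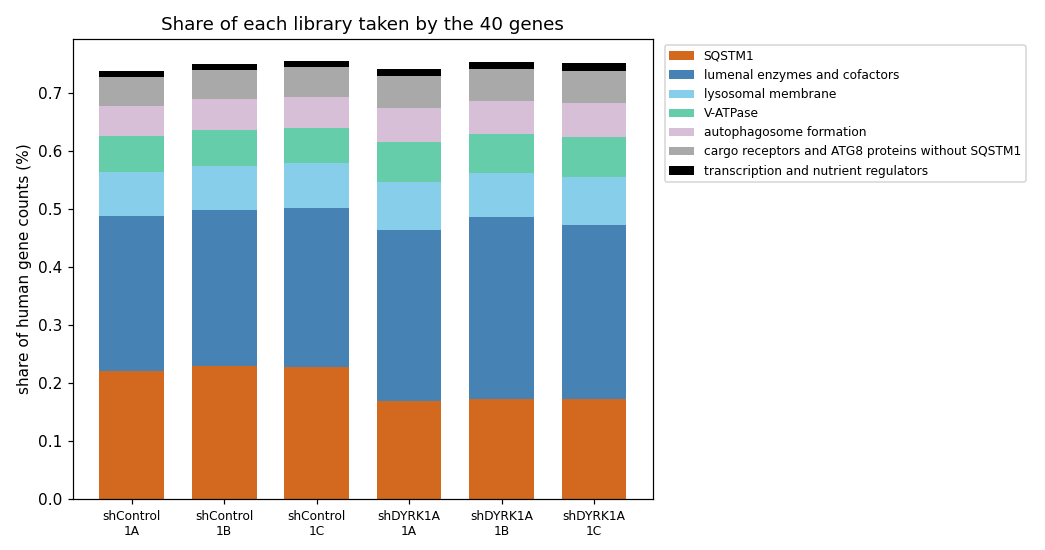
Share of human gene counts (%) taken by the 40 genes in each of the 6 libraries, as stacked bars from 0, divided into SQSTM1 and the 6 roles. The total is 0.739 to 0.756% in every library, while the SQSTM1 segment is 0.221 to 0.229% in shControl and 0.170 to 0.173% in shDYRK1A.

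To see how these genes stand within their pathways, 154 further symbols of lysosomal, V-ATPase, sorting and autophagy genes were listed, of which 150 had a row and 128 were tested. On the spike-in scale 55 of the 128 (43.0%) were lower and 3 (2.34%) higher, beside the 63.4% and 1.08% of all genes given above, and 9 (7.03%) were called lower with the size threshold, against 14.3% of all genes. The count of 55 was 31 without shControl 1A, 29 without shControl 1B and 34 without shDYRK1A 1C. On the TMM scale 20 (15.6%) were lower and 66 (51.6%) higher, beside 28.6% and 27.3%, and 3 (2.34%) were called higher with the size threshold, against 1.25% of all genes. Their median was -0.26 with the spike-in and 0.15 with TMM. Lumenal genes had the highest median of the 7 roles on both scales, at -0.13 and 0.27 over 35 genes, and 25 of the 35 were higher with TMM. V-ATPase genes followed, with 8 of 12 higher with TMM. The autophagosome genes of this list had a median of -0.38 with the spike-in and 0.02 with TMM, with 10 of 32 higher and 6 lower on the TMM scale.

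**Figure D4:**
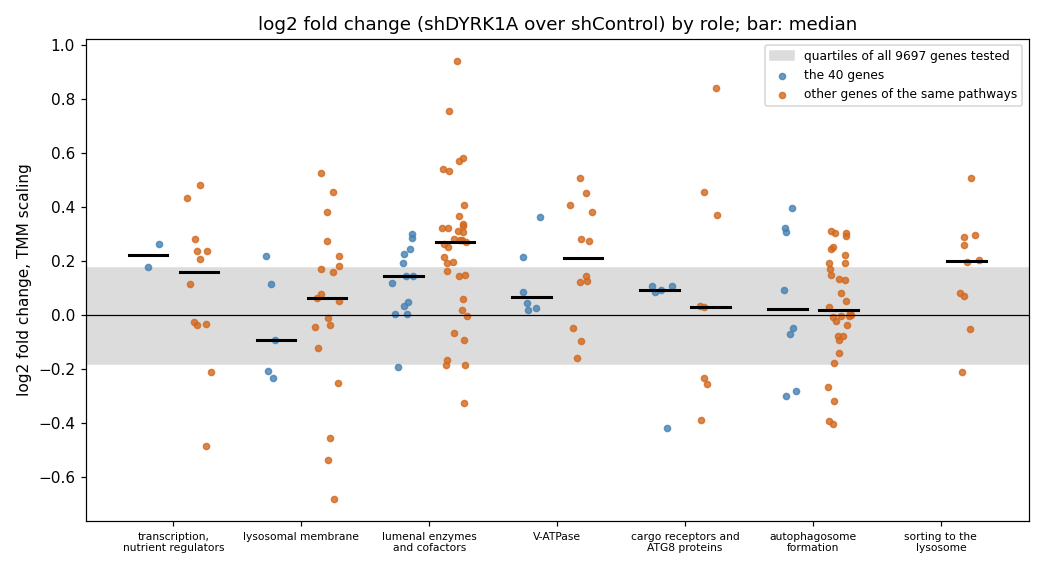
Log2 fold change on the TMM scale by role, for the 40 genes (blue, 39 tested) and the other genes of the same pathways (orange, 128 tested). Each point is a gene, black bars are medians and the grey band spans the quartiles of all 9697 genes, from -0.18 to 0.18. The medians of the lumenal genes are 0.14 and 0.27, and those of the autophagosome genes 0.02 in both lists.

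In the wider list, 3 genes rose on both scales. CTSO, a cysteine cathepsin, had 1069, 1164 and 1009 normalized counts in shControl and 1719, 1413 and 1587 in shDYRK1A. Its log2 fold change was 0.54 ± 0.15 (adjusted p = 0.00102 by edgeR) and 0.94 ± 0.06 with TMM (adjusted p = 2.74e-07). MAP1LC3A, an ATG8 gene and paralog of MAP1LC3B, had 594, 590 and 498 against 783, 765 and 719, with 0.43 ± 0.16 (adjusted p = 0.0135) and 0.84 ± 0.08 (adjusted p = 5.56e-06). Without shDYRK1A 1C its spike-in value was 0.47 with an adjusted p of 0.0519. SMPD1, acid sphingomyelinase, which lies outside the rule for named genes, had 2442, 2407 and 2240 against 3254, 2977 and 2821, with 0.35 (adjusted p = 0.0226) and 0.75 (adjusted p = 2.73e-06). The spike-in call of SMPD1 was lost without shControl 1A, shControl 1B, shDYRK1A 1A or shDYRK1A 1C (adjusted p = 0.0695, 0.0714, 0.0814 and 0.063). All 3 had every shDYRK1A library above every shControl library, and without shDYRK1A 1C only 1 of the 3 passed on the spike-in scale.

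The lowest of the wider list was LAPTM5, a lysosomal membrane protein best known from blood cells. It had 6273, 6349 and 5241 normalized counts in shControl and 2893, 2726 and 2768 in shDYRK1A, with log2 fold changes of -1.09 ± 0.14 (adjusted p = 3.48e-13) and -0.68 ± 0.05 with TMM (adjusted p = 1.23e-06). FOXO3, a transcription factor of autophagy genes, fell by 0.89 (adjusted p = 8.79e-08) and by 0.49 with TMM (adjusted p = 3.6e-05). STX17, the SNARE protein that lets autophagosomes fuse with lysosomes, fell by 0.80 (adjusted p = 6.34e-06) and by 0.40 with TMM (adjusted p = 0.00126). BNIP3, a receptor for mitochondria, fell by 0.80 (adjusted p = 5.06e-08) and by 0.39 with TMM (adjusted p = 4.95e-05), and ARSB, arylsulfatase B, fell by 0.72 and by 0.32. GGA2, an adaptor for sorting to lysosomes, had -0.61 and -0.21, both past the test. ATP6V0A2, a V0 subunit, had -0.56 (adjusted p = 0.00131) and a TMM value of -0.16 (adjusted p = 0.0976).

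At the upper end of the other roles were LAMTOR4, of the Ragulator complex that tethers mTORC1 to the lysosome, TMEM175, a lysosomal ion channel, ATP6V0E2, a V0 subunit, and SUMF1, which activates sulfatases. Their TMM log2 fold changes were 0.48, 0.52, 0.51 and 0.51, all past the test, and their spike-in values were 0.06, 0.11, 0.10 and 0.11, none past it (adjusted p = 0.684, 0.51, 0.554 and 0.529). ATG13, a partner of ULK1, had the highest spike-in value among the wider autophagosome genes that passed on either scale, at -0.10 (adjusted p = 0.534), and 0.30 with TMM (adjusted p = 9.57e-05), close to the value of ULK1. Of the 32 genes of that role, 6 (18.8%) were lower on the TMM scale, against 28.6% of all genes.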

How the data were processed

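Messenger RNA of 6 T98G libraries (3 shControl, 3 shDYRK1A, grouped by sample title) was sequenced by the study with a stranded kit, with fly cells as spike-in. Tables of raw counts per gene were deposited by the authors, whose processing notes name STAR, hg38 and dm3; the annotation and the strand setting of counting are not given in the sources used here. A second deposited table holds normalized signal: each column is the raw counts divided by 1 constant per library, which was recovered here as the size factor. The last table holds the authors' DESeq2 fold changes and p-values and was not used. Coordinates of 95.8% of the 23026 genes with normalized signal equal GENCODE v29. No fly counts were used here.

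Genes with a mean normalized count above 10 CPM of the mean library were tested (9697) with edgeR 4.0.16 (quasi-likelihood, robust), with spike-in size factors or TMM and Benjamini-Hochberg adjustment over all of them. The size threshold was a log2 fold change of 0.7. Standard errors are the fold change over the square root of F. The fit was run on simulated counts that held no shift shared by most genes and no error in the size factors. That run checked the code and not the calls above. Alternatives were median-of-ratios scaling, DESeq2 1.42.0 (spike-in scale), filterByExpr, no filter, a replicate block, each library left out, an adjusted p below 0.01, and the members' share without the mitochondrial genome. The members' share without SQSTM1 and median without CTSD were added after seeing the data.

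The members and lists were chosen with earlier results of these data known, and so support no claim beyond description. Values are given in full for TFEB, TFE3, the lowest and highest member of each role, members past the size threshold and members higher with TMM, and for the lowest and highest passing gene of each role in the wider list; the other members follow because every member is described. Of the 154 symbols of the wider list, 150 had a row. A gene of that list is not reported here by name.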

Additional observations from a re-analysis of the deposited data

How the results depend on the processing

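With TMM and with median-of-ratios scaling, the members lower at an adjusted p below 0.05 were 6 and 6 in place of 23, those higher 15 and 16 in place of 0, and those lower past the size threshold 0 and 0 in place of 2. The median of the members turned from -0.31 to 0.0939 and 0.0970. In the wider list 20 and 20 were lower in place of 55, and 66 and 67 higher in place of 3. By construction these scalings remove the shift shared by most genes. Positive log2 fold changes numbered 30 of the 39 members with TMM and 0 with the spike-in, and 86 and 17 of the 128 wider genes. Of all genes tested, 49.6% were negative with TMM and 93.6% with the spike-in. Among the genes chosen by the naming rule, those that turned positive were, with TMM and median of ratios in turn, TFEB 0.18 and 0.18, TFE3 0.26 and 0.27, SCARB2 0.22 and 0.22, GAA 0.30 and 0.30, ATP6V1A 0.0189 and 0.0222, ATP6AP1 0.36 and 0.37, GABARAPL2 0.11 and 0.11, BECN1 0.40 and 0.40, LAMP1 0.11 and 0.12, CTSA 0.19 and 0.20, CTSL 0.14 and 0.15, CTSZ 0.15 and 0.15, HEXA 0.22 and 0.23, TPP1 0.25 and 0.25, PSAP 0.28 and 0.29, ATP6V0D1 0.21 and 0.22, ULK1 0.32 and 0.33, WIPI2 0.31 and 0.31, and ATG13 0.30 and 0.31. With filterByExpr and with no filter, the TMM values turned negative for ATP6V1A (-0.0112 and -0.0274), ATP6V1C1 (-0.00358 and -0.0198), CTSD (-0.0258 and -0.0417) and LIPA (-0.0258 and -0.0419), and with no filter also for GUSB (-0.0122) and ATP6V1B2 (-0.000668).

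Leaving out each library in turn gave 9 to 29 members lower, 1 to 5 past the size threshold, 29 to 70 wider genes lower and 1 to 3 higher. Values near 0 changed sign in these fits. With the spike-in they ranged from -0.121 to 0.00442 for ATP6AP1, -0.106 to 0.0547 for BECN1, -0.157 to 0.0223 for ULK1, -0.000312 to 0.238 for TMEM175, -0.0273 to 0.134 for LAMTOR4 and -0.00251 to 0.171 for SUMF1, and with TMM from -0.0371 to 0.0867 for ATP6V1A, -0.117 to 0.0796 for CTSD, -0.0102 to 0.0625 for GUSB, -0.0166 to 0.0409 for LIPA and -0.0614 to 0.106 for NPC2; the cause was not tested. With no filter 15 members were lower, and at an adjusted p below 0.01 there were 11, with 1 wider gene higher. The median of the members minus that of all genes was 0.0911, and 0.0579 with filterByExpr and 0.0245 with no filter, where more weakly expressed genes enter the comparison. The share of counts taken by the members differed by 0.000729 percentage points between groups, and by 0.0549 without SQSTM1.

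With the replicate letter as a replicate block, 19 members were lower with the spike-in, and 6 lower and 15 higher with TMM. LAMP1, ATP6V1H, GABARAPL1 and WIPI1 lost their spike-in calls (adjusted p = 0.0507, 0.0547, 0.0674 and 0.0659 by edgeR), and no other member's call at an adjusted p below 0.05 changed on either scale. Deviations of libraries with the same letter correlated at 0.151, 0.0728 and 0.128 for 1A, 1B and 1C. Correlations between different letters were all negative, from -0.0937 to -0.0143, so each library correlated best with its own letter. The same-letter correlations were small, and the main fits did not treat the letters as pairs. If the letters mark pairs, the counts with the block apply. Fold changes under about 0.3 with the spike-in were near the limit of what 3 libraries per group showed, since its SE was 0.12 to 0.17.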
